A study of Rattus norvegicus with 16 samples.

Results

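Iron handling genes were followed around ceruloplasmin (Cp), the copper ferroxidase whose transcript fell in Schwann cells and rose in the whole sciatic nerve of the rat after crush injury. The 9 genes are Cp, its membrane-bound relative Heph, the iron exporter Slc40a1, the importer Slc11a2, transferrin (Tf) and its receptor Tfrc, the ferritin chains Fth1 and Ftl1, and the heme oxygenase Hmox1. They were taken by symbol from the 31038 genes of the deposited tables, and all 9 were found. The set was selected on the measured levels of Cp, which fell in Schwann cells and rose in whole nerve, so the Cp levels before and after crush and in both tissues are given as a description without a test. The other 8 genes were named for their role, with earlier results of these data known. They were tested within fits over all genes.

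The libraries came from purified Schwann cells and from whole nerve, uncrushed or at 3, 5 and 7 days after crush, with 2 libraries in each of the 8 groups. Crush was done at postnatal day 18, and the labels give that age for every sample. Crushed nerves were collected days later, and no label gives an uncrushed nerve of a later age. Time after crush and age at collection therefore cannot be told apart. Each sample pooled a minimum of 10 nerves, and from injured nerves the segment distal to the crush was used. Schwann cells were dissociated with enzymes, panned to remove cells carrying CD45 or Thy1 and then selected with O4, while whole nerve was not dissociated. The uncrushed nerves had no sham operation. So the Schwann cell libraries also carry whatever dissociation and panning do to RNA. No label states that the 2 libraries of a group came from separate animals or days. The p-values therefore measure the spread between these libraries, and an exact permutation of 2 against 2 could not reach 0.05.

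In cells, ferric iron bound to transferrin enters through the transferrin receptor, leaves the endosome through the divalent metal transporter encoded by Slc11a2 and is stored inside ferritin, a shell of heavy and light chains. Ferroportin, encoded by Slc40a1, carries ferrous iron out, and ceruloplasmin or hephaestin oxidises it for transferrin. Heme oxygenase frees iron from heme. In an injured nerve, myelin and blood-derived debris are cleared by Schwann cells and macrophages, and macrophages are known for recycling iron from heme.

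The depth lay between 10555067 and 27562637 expected counts per library. The scaled level used below is the count per gene length and library depth (FPKM) after trimmed mean of M values (TMM) scaling, so levels may be compared between genes and libraries. The log2 fold changes come from counts scaled within each fit and can differ from the ratio of the levels. The TMM factor was 0.8197 and 0.8214 in the uncrushed whole nerve libraries and between 0.9944 and 1.0663 in the other 14. All 9 Schwann cell markers examined were above 3 counts in every group. The 8 macrophage markers summed to between 3.09 and 14.24 FPKM in the Schwann cell libraries, to 161 and 181 in uncrushed whole nerve and to between 416 and 705 in crushed whole nerve. The 7 fibroblast markers summed to 1604 and 1343 FPKM in the uncrushed Schwann cell libraries, to between 308 and 469 in the crushed ones and to between 6497 and 8547 in whole nerve. In whole nerve, fewer cells of a type and less RNA per cell cannot be told apart.

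RefSeq promoters (rat assembly GRCr8) of 6 of the 9 genes were used here, and the 250 bases before the start site of each were searched on both strands for the letters TATAAA, for CCAAT and for ACGTG. Cp and Tf, which encode the secreted proteins of the set, were those in which TATAAA was found. Both are shown here because their transcripts behaved differently in the purified cells. Capitals mark TATAAA as well as CCAAT on either strand, and each sequence runs 5′ to 3′ along its gene.

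Cp promoter, GRCr8, chr2:104368420-104368669, plus strand: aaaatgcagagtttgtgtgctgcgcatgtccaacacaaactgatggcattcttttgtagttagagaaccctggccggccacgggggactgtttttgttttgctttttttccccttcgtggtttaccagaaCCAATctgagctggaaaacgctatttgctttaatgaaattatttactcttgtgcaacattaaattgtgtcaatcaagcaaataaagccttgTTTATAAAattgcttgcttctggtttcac

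Tf promoter, GRCr8, chr8:112695377-112695626, minus strand: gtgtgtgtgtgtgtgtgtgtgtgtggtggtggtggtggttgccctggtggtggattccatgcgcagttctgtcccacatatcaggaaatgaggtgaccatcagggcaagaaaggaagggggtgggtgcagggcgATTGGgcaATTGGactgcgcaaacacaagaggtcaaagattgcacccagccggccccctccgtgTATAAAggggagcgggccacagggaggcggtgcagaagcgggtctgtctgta

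In Cp, 2 overlapping matches to TATAAA, 1 on each strand, began 29 and 27 bases before the start site, and CCAAT began 120 bases before it. In Tf, TATAAA began 52 bases before the start site, and CCAAT was read on the opposite strand from 116 and from 108 bases before it. Of 33469 rat promoters of this length, 12.931% held TATAAA and 34.017% held CCAAT. Tfrc held ACGTG, as did 16.574% of all promoters. The deposited counts were made on another build, Rnor_6.0, and these matches are letters only, not tested sites.

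Cp was high in resting Schwann cells and low in every crushed one. Its scaled level was 50.6 and 49.96 in the uncrushed Schwann cell libraries, 7.27 and 7.36 on day 3, 5.19 and 5.57 on day 5, and 4.57 and 4.64 on day 7. The mean was 6.87-fold lower on day 3 and 10.9-fold lower on day 7, and the ranges of the 4 groups did not overlap. In whole nerve the level was 29.0 and 34.1 before crush, 59.2 and 64.2 on day 3, 68.8 and 74.1 on day 5, and 107 and 94.5 on day 7. The groups of whole nerve did not overlap either, and the mean was 1.96-fold higher on day 3 and 3.19-fold higher on day 7. Before crush, Schwann cells held 1.59 times the whole nerve level. This ratio depended on the scaling, since the mean deposited FPKM was 51.1 against 25.9 and the mean deposited TPM, which sets each library to the same total, was 114 against 40.8. On day 7 the whole nerve level was 21.9 times that of Schwann cells.

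Cp also differed between day 3 and day 7, which is likewise a description because those libraries entered the choice. The log2 fold change of day 7 over day 3 was -0.67 ± 0.10 (SE) in Schwann cells and 0.68 ± 0.11 in whole nerve. The fibroblast markers, summed as above, were also lower in the crushed than in the uncrushed Schwann cells. So were the 4 markers of pericytes and smooth muscle, at 50.4 and 37.9 FPKM before crush and between 7.81 and 17.41 after it. The part of either in the level of Cp was not tested.

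**Figure D1:**
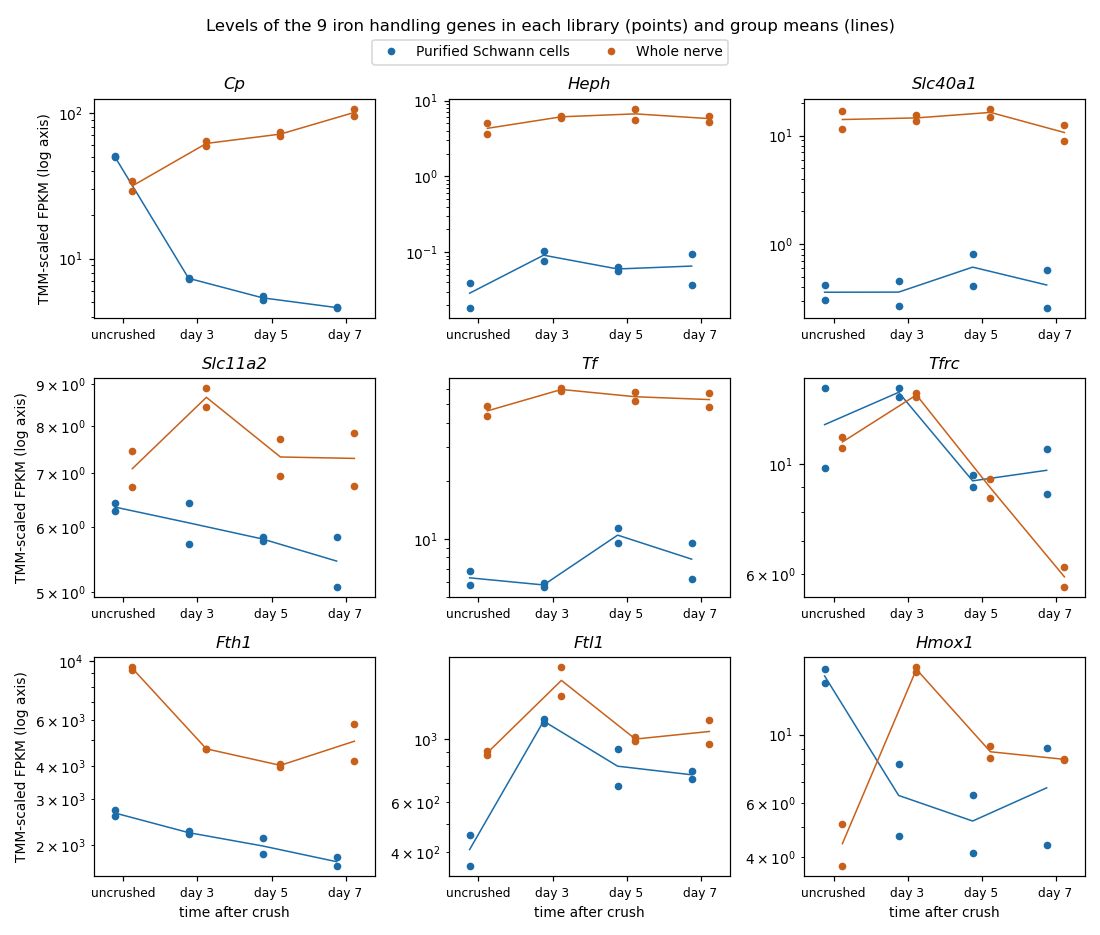
Scaled level of each of the 9 genes (TMM-scaled FPKM, log axis) against time after crush, with 1 point per library and a line through the group means, for purified Schwann cells and whole nerve. Cp and Hmox1 fall in Schwann cells and rise in whole nerve, while Heph, Slc40a1 and Tf lie far higher in whole nerve, whatever the time.

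Hephaestin, the other ferroxidase of the set, was nearly absent from purified Schwann cells. Heph had 1 and 2 counts in the uncrushed Schwann cell libraries and between 3 and 11 in the crushed ones, too few for the test within that tissue. In whole nerve its scaled level was 5.01 and 3.60 before crush, 5.90 and 6.33 on day 3, 7.85 and 5.51 on day 5, and 6.32 and 5.25 on day 7. The crushed whole nerve libraries all lay above the uncrushed pair. Only day 5 passed the test, with a log2 fold change of 0.56 ± 0.20 (SE; edgeR adjusted p = 0.0491), and the call was lost without uncrushed replicate 2 (0.35), without day 5 replicate 1 (0.31) or with the 2 groups alone (0.56). Without uncrushed replicate 1 the day 5 value was 0.85, and day 3, at 0.44 ± 0.20 (adjusted p = 0.0953), passed with 0.74. It also passed with no filter (0.48), with the replicate block (0.48) and with total counts in place of TMM (0.85), and day 7 passed with total counts (0.69). Scaled to library size, whole nerve held 157 times the Heph counts of Schwann cells before crush (95% interval 53.3 to 764, counting error only), and 64.9 times on day 3 (39.8 to 114).

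Ferroportin, the exporter that works with these ferroxidases, was another transcript of whole nerve rather than of the purified cells. The scaled level of Slc40a1 was 0.304 and 0.415 in uncrushed Schwann cells, and the crushed ones lay between 0.257 and 0.811 with overlapping groups, from 11 to 39 counts per library. Whole nerve held 16.7 and 11.4 before crush, 15.5 and 13.5 on day 3, 17.7 and 14.9 on day 5, and 12.4 and 8.92 on day 7. Neither tissue passed the test on any day. The Schwann cell interval on day 3 ran from -1.14 to 1.49 on the log2 scale, which leaves changes of over 2-fold undetectable at these counts. In whole nerve on day 7 the change was -0.47 ± 0.20 (adjusted p = 0.10), with an interval from -0.91 to -0.03. It passed without uncrushed replicate 2 (-0.69), without day 7 replicate 1 (-0.71), with no filter (-0.45) and with the replicate block (-0.46). With total counts in place of TMM, day 5 passed as a rise (0.52).

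Slc11a2, the divalent metal transporter, was at a somewhat lower scaled level in Schwann cells than in whole nerve. Schwann cells lay between 5.07 and 6.43 over all 8 libraries and whole nerve between 6.73 and 8.91. This order depended on the scaling, since the mean deposited TPM before crush was 14.435 in Schwann cells and 9.155 in whole nerve. No comparison with uncrushed nerve passed the test in either tissue. In Schwann cells on day 7 the log2 fold change was -0.31 ± 0.13 (adjusted p = 0.0831), with an interval from -0.60 to -0.01, and it passed with all 16 libraries in 1 fit (-0.33). In whole nerve on day 3 it was 0.10 ± 0.13, with an interval from -0.19 to 0.39, and it passed with total counts in place of TMM (0.51).

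Transferrin, the plasma iron carrier, had several times more transcript in whole nerve than in Schwann cells. The scaled level of Tf in Schwann cells was 6.81 and 5.74 before crush, 5.61 and 5.92 on day 3, 11.4 and 9.48 on day 5, and 9.52 and 6.17 on day 7. The day 5 pair lay above the uncrushed pair, and the other days overlapped it. Tf rose on day 5 by 0.75 ± 0.20 (log2; adjusted p = 0.0113), a call lost without uncrushed replicate 2 or without day 5 replicate 1 (0.62 and 0.61). On day 7 the value was 0.35 ± 0.21 (adjusted p = 0.196), and it passed at 0.62 without day 7 replicate 2. In whole nerve the level was 48.8 and 43.3 before crush and 60.7 and 58.2 on day 3. That rise, 0.30 ± 0.11 (adjusted p = 0.0403), was lost without uncrushed replicate 2 (0.23), day 3 replicate 1 (0.29) or day 3 replicate 2 (0.33), and with all 16 libraries in 1 fit (0.37). Later whole nerve values were 0.14 ± 0.11 and 0.10 ± 0.11 and did not pass, but both did with total counts in place of TMM (0.54 and 0.50).

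The transferrin receptor, which takes up iron-loaded transferrin, fell late in whole nerve. The scaled level of Tfrc there was 10.8 and 11.4 before crush, 14.0 and 13.7 on day 3, 9.37 and 8.57 on day 5, and 6.20 and 5.64 on day 7. Day 3 lay above the uncrushed pair without passing (0.25 ± 0.10, adjusted p = 0.0560), though it passed with upper quartile scaling (0.26) and with total counts (0.66). Tfrc fell on day 5 (-0.41 ± 0.10, adjusted p = 0.00805) and on day 7 (-1.0 ± 0.10, adjusted p = 3.78e-05). From day 3 to day 7 the change was -1.25 ± 0.10 (adjusted p = 2.26e-05). The day 5 call was lost without uncrushed replicate 2 (-0.36), without day 5 replicate 2 (-0.34), with all 16 libraries in 1 fit (-0.31) or with total counts in place of TMM (-0.0034), whereas the day 7 call was kept in each alternative run. The 7 red blood cell markers, a cell lineage known for a high need of the receptor, summed to 984 and 3732 FPKM in the uncrushed whole nerve libraries and to between 1190 and 2854 in the crushed ones, and their part in Tfrc was not tested.

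In Schwann cells Tfrc was at 9.83 and 14.3 before crush, 14.3 and 13.7 on day 3, 9.52 and 9.01 on day 5, and 10.8 and 8.71 on day 7. The uncrushed replicates lay far apart. The day 5 pair lay below both of them, and the day 3 and day 7 pairs overlapped their range. No day passed against uncrushed cells (0.25 ± 0.17 on day 3, -0.36 ± 0.17 on day 5 and -0.28 ± 0.17 on day 7). Without uncrushed replicate 2 day 3 passed at 0.51, and without uncrushed replicate 1 day 5 and day 7 passed at -0.60 and -0.53. Day 5 also passed with all 16 libraries in 1 fit (-0.38) and with no filter (-0.35). Day 7 over day 3 gave -0.53 ± 0.17 (adjusted p = 0.0515). That comparison passed with about the same value in 5 alternatives, namely without the filter (-0.52), with a minimum of 10 counts in each library (-0.53), with the 2 groups alone (-0.53), with all 16 libraries in 1 fit (-0.52) and with DESeq2 (-0.55).

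The ferritin chains changed in opposite directions in Schwann cells, and their levels came closer. Fth1, the heavy chain with ferroxidase activity, had a scaled level of 2708 and 2589 in uncrushed Schwann cells, 2200.0 and 2256 on day 3, 1842 and 2123 on day 5, and 1796 and 1657 on day 7. Every crushed library lay below the uncrushed pair. Fth1 fell on day 5 (-0.42 ± 0.10, adjusted p = 0.00538) and on day 7 (-0.61 ± 0.10, adjusted p = 0.000786), while day 3 did not pass (-0.23 ± 0.10, adjusted p = 0.0767). The day 5 call was lost without day 5 replicate 1 (-0.32), and day 3 passed with upper quartile scaling (-0.31), with a filter of 10 counts in every library (-0.28) and with DESeq2 (-0.26).

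Fth1 fell in whole nerve on all 3 days. The level there was 9537 and 9287 before crush, 4635 and 4658 on day 3, 4076 and 3965 on day 5, and 5772 and 4166 on day 7. The uncrushed pair lay above all 6 crushed libraries. The log2 fold changes were -1.08 ± 0.13, -1.34 ± 0.13 and -1.02 ± 0.13 on days 3, 5 and 7, and the largest adjusted p was 0.000174. The 9 Schwann cell markers summed to 18315 and 21818 FPKM in uncrushed whole nerve and to between 2317 and 4682 in the crushed libraries. In purified Schwann cells they summed to 9009 and 9249 before crush and to between 3861 and 6621 after it. Their part in the level of Fth1 was not tested.

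Ftl1, the light chain that aids iron core formation, rose. Its scaled level in Schwann cells was 356 and 460 before crush, 1133 and 1175 on day 3, 683 and 919 on day 5, and 723 and 772 on day 7. All crushed Schwann cell libraries lay above the uncrushed pair. The log2 fold change was 1.52 ± 0.16 on day 3 (adjusted p = 3.39e-05), 0.97 ± 0.16 on day 5 (adjusted p = 0.000607) and 0.88 ± 0.16 on day 7 (adjusted p = 0.00138). In whole nerve the level was 880 and 906 before crush, 1791 and 1419 on day 3, 1013 and 983 on day 5, and 962 and 1161 on day 7. Only day 3 passed there (0.78 ± 0.12, adjusted p = 0.000446), and days 5 and 7 gave 0.05 ± 0.12 and 0.15 ± 0.12. Both of these passed with total counts in place of TMM (0.45 and 0.56).

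After day 3 the light chain transcript came down again in both tissues. Ftl1 fell from day 3 to day 7 by -0.64 ± 0.16 in Schwann cells (adjusted p = 0.0168) and by -0.63 ± 0.12 in whole nerve (adjusted p = 0.00475). Fth1 fell over the same days in Schwann cells (-0.38 ± 0.10, adjusted p = 0.0218) and not in whole nerve (0.06 ± 0.13). Both Schwann cell calls were lost when any 1 of the 4 libraries compared was left out, with Ftl1 between -0.70 and -0.59 and Fth1 between -0.43 and -0.33, and that of Fth1 also with total counts (-0.29). The whole nerve call of Ftl1 was lost without day 3 replicate 1 (-0.47).

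Within each library, Fth1 was 5.63 and 7.61 times Ftl1 in uncrushed Schwann cells by FPKM and between 1.92 and 2.7 times in the crushed ones. In whole nerve the ratio was 10.2 and 10.8 before crush and between 2.59 and 6.0 after it. The ratio does not depend on the scaling between libraries. Fth1 ranked between 11 and 25 among all genes by FPKM, and Ftl1 between 39 and 151. Ferritin genes have many processed copies, and 4 of 28 related records of the GRCr8 table had rows in the files. The 3 relatives of Ftl1 together held between 4.6% and 8.34% as many counts as Ftl1 itself, and the relative of Fth1 between 0.664% and 1.48%, so reads shared with copies leave both genes uncertain by an amount that was not tested.

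**Figure D2:**
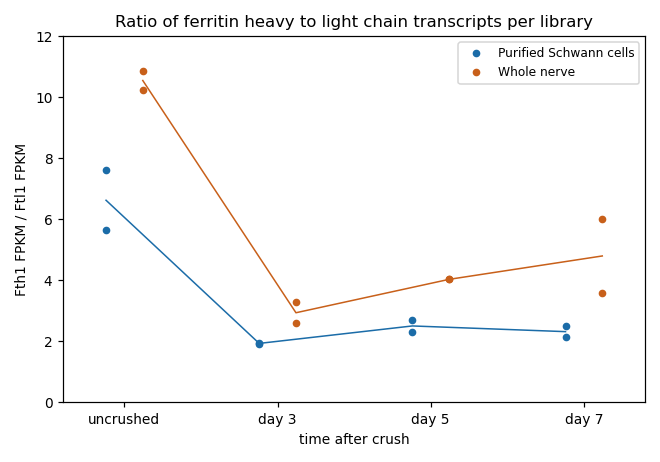
Ratio of Fth1 to Ftl1 FPKM in each library against time after crush, with 1 point per library and a line through the group means. The uncrushed libraries lie at 5.63 and above and the crushed Schwann cell libraries at 2.7 and below, while crushed whole nerve spans 2.59 to 6.0.

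Hmox1, the inducible enzyme that opens heme and frees its iron, moved in opposite directions in the tissues. Its scaled level in Schwann cells was 14.7 and 16.3 before crush, 4.67 and 8.02 on day 3, 4.13 and 6.35 on day 5, and 4.37 and 9.06 on day 7. All 6 crushed libraries lay below the uncrushed pair, with replicates that differed widely. The log2 fold change was -1.24 ± 0.34 on day 3 (adjusted p = 0.0133), -1.55 ± 0.35 on day 5 (adjusted p = 0.00458) and -1.21 ± 0.35 on day 7 (adjusted p = 0.0180). Day 3 was lost without day 3 replicate 1 (-0.95), and day 7 without day 7 replicate 1 (-0.74) or uncrushed replicate 2 (-1.16), whereas day 5 passed in each alternative run. The fibroblast and the pericyte and smooth muscle markers were lower in these crushed libraries too, by the sums given above, while the macrophage markers lay at 3.09 to 14.24 FPKM. The part of these lists in Hmox1 was not tested.

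In whole nerve Hmox1 was at 5.12 and 3.74 before crush, 16.6 and 16 on day 3, 9.18 and 8.40 on day 5, and 8.26 and 8.36 on day 7. Every crushed library lay above the uncrushed pair, and day 3 lay above the later days. The rise was 1.79 ± 0.17 on day 3 (adjusted p = 1.41e-05), 0.87 ± 0.17 on day 5 (adjusted p = 0.00303) and 0.79 ± 0.18 on day 7 (adjusted p = 0.00640), and the day 7 call was lost when all 16 libraries entered 1 fit (0.89). It fell by 1.0 ± 0.16 between day 3 and day 7 (adjusted p = 0.00155). All 8 macrophage markers rose on day 3 in whole nerve as well, with a median log2 fold change of 1.77, and their part in the Hmox1 level was not tested.

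**Figure D3:**
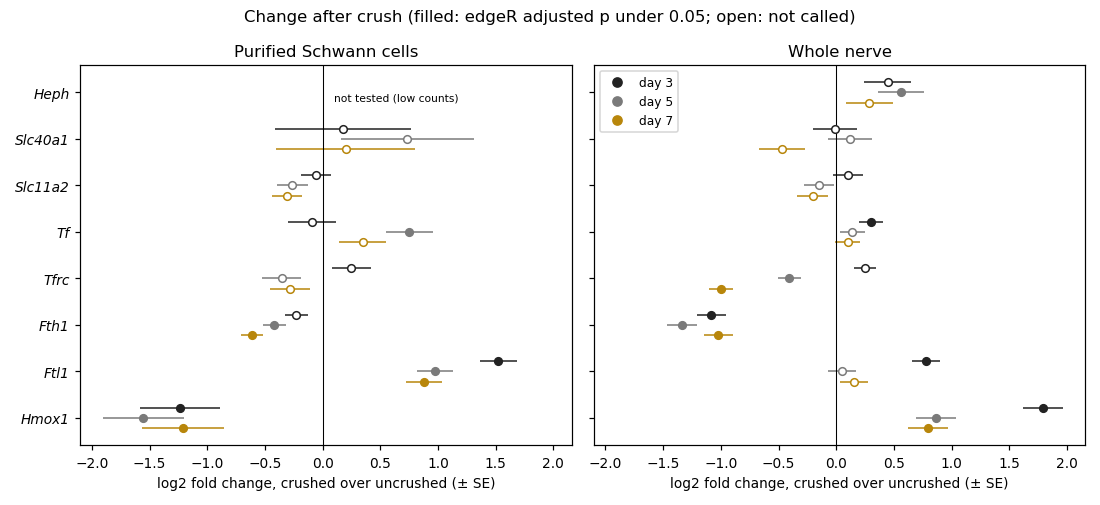
Log2 fold change of crushed over uncrushed libraries with its SE for the 8 genes tested, on days 3, 5 and 7, in Schwann cells (left) and whole nerve (right). Filled points have an edgeR adjusted p under 0.05, and the chains of ferritin stand on opposite sides of 0 on day 3 in both tissues.

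The calls among the 8 genes were counted beside the share of all genes called. In Schwann cells 1 rose and 1 fell of 7 tested on day 3, 2 rose and 2 fell on day 5, and 1 rose and 2 fell on day 7. Over all genes 52.5%, 54.6% and 46.9% were called at those days. Split by direction, 26.9%, 29.0% and 25% rose and 25.7%, 25.6% and 21.9% fell. In whole nerve 3 rose and 1 fell of 8 on day 3, 2 rose and 2 fell on day 5, and 1 rose and 2 fell on day 7, beside 45.6%, 38.4% and 31.3% of all genes. Split in the same way, 23.1%, 18.9% and 15.4% rose and 22.5%, 19.5% and 15.9% fell. From day 3 to day 7, 2 of 7 fell in Schwann cells and 3 of 8 in whole nerve, and none rose. Over all genes 21.0% and 21.2% were called in those comparisons. By direction, 10.7% fell and 10.2% rose in Schwann cells over those days, and 11.4% fell and 9.85% rose in whole nerve.

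The effect of crush on Hmox1 differed between the tissues at each day. The Schwann cell log2 fold change minus that of whole nerve was -3.13 ± 0.44 on day 3 (adjusted p = 0.000105), -2.54 ± 0.44 on day 5 (adjusted p = 0.000681) and -2.12 ± 0.45 on day 7 (adjusted p = 0.00294). For Fth1 it was 0.75 ± 0.17 on day 3 (adjusted p = 0.00487) and 0.80 ± 0.17 on day 5 (adjusted p = 0.00320), so the fall was smaller in Schwann cells, and 0.29 ± 0.17 on day 7 (adjusted p = 0.232). Day 7 of Fth1 passed without whole nerve day 7 replicate 1 (0.54), and day 3 was lost with total counts in place of TMM (0.39).

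For Ftl1 the difference was 0.64 ± 0.22 on day 3 (adjusted p = 0.0423), 0.80 ± 0.22 on day 5 (adjusted p = 0.0132) and 0.61 ± 0.22 on day 7 (adjusted p = 0.0512). The calls changed with single libraries. Day 3 was lost in 6 of the 8 fits that left out 1 library, with values between 0.47 and 0.69 in those 6, day 5 without uncrushed Schwann cell replicate 1 (0.63) or day 5 Schwann cell replicate 2 (0.58), and both with total counts (0.28 and 0.55). Day 7 passed with upper quartile scaling (0.65), with no filter (0.597), with at least 10 counts in every library (0.60), with the replicate block (0.62) and with DESeq2 (0.58), and without uncrushed Schwann cell replicate 2 (0.81) or whole nerve day 7 replicate 2 (0.77). Tfrc on day 7 gave 0.60 ± 0.21 (adjusted p = 0.0503) and passed with upper quartile scaling (0.64), no filter (0.58) and at least 10 counts in every library (0.59), and without uncrushed Schwann cell replicate 2 (0.89) or day 7 Schwann cell replicate 2 (0.75).

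Slc40a1, Slc11a2 and Tf passed on none of the days in this test of the difference, although with total counts in place of TMM day 3 passed for Slc11a2 (-0.63) and Tf (-0.86). Heph entered that fit through its whole nerve counts alone, so it is not counted. Over all genes 26.0%, 27.5% and 26.0% were called on days 3, 5 and 7, beside 3, 3 and 1 of the other 7. The difference was called and positive in 12.3%, 12.6% and 11.6% of the genes tested, and called and negative in 13.7%, 14.9% and 14.4%. For Cp, not tested, the same difference was -3.75, -4.41 and -5.11.

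**Figure D4:**
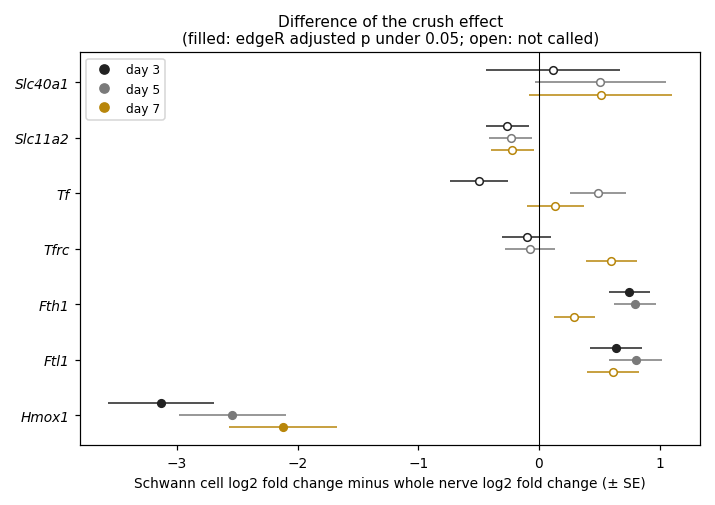
Schwann cell minus whole nerve log2 fold change after crush, with its SE, for the 7 genes testable in both tissues on days 3, 5 and 7. Filled points have an edgeR adjusted p under 0.05, and Hmox1 stands alone between -3.13 and -2.12.

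Between the tissues at the same time, most of these transcripts were lower in purified Schwann cells. Heph passed the filter there only through whole nerve and is left out of the count. Of the other 7 tested, 1 was higher and 4 were lower in uncrushed Schwann cells, 6 were lower on day 3, 4 were lower on day 5, and 1 was higher and 5 were lower on day 7. Over all genes 35.3%, 32.8%, 28.4% and 28.7% were lower in Schwann cells at those times, 29.1%, 24.5%, 23.2% and 22.4% were higher, and 64.4%, 57.3%, 51.7% and 51.0% were called in either direction. The largest gaps among the 7 were those of Slc40a1 and Tf. Slc40a1 was lower by -5.26 ± 0.37 before crush and -5.14 ± 0.33 on day 3 on the log2 scale, and Tf by -2.87 ± 0.18 and -3.37 ± 0.17, each with an adjusted p of 1.92e-08 or less.

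The ferritin chains were lower in Schwann cells too. Fth1 differed by -1.83 ± 0.12 before crush, -1.08 ± 0.12 on day 3, -1.03 ± 0.12 on day 5 and -1.54 ± 0.12 on day 7. Ftl1 differed by -1.13 ± 0.16 before crush (adjusted p = 1.87e-05), -0.49 ± 0.15 on day 3 (adjusted p = 0.0132), -0.33 ± 0.15 on day 5 (adjusted p = 0.0865) and -0.52 ± 0.15 on day 7 (adjusted p = 0.0113). The calls on days 3 and 7 were lost without Schwann cell day 3 replicate 1 (-0.47) or whole nerve day 3 replicate 1 (-0.32), and without Schwann cell day 7 replicate 1 (-0.47) or whole nerve day 7 replicate 2 (-0.36). Day 5 passed without Schwann cell day 5 replicate 2 (-0.55) or with no filter (-0.32).

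Hmox1 was higher in Schwann cells before crush (1.79 ± 0.32, adjusted p = 0.000232) and lower on day 3 (-1.35 ± 0.29, adjusted p = 0.00125). On days 5 and 7 it gave -0.76 ± 0.31 (adjusted p = 0.0519) and -0.34 ± 0.31 (adjusted p = 0.386), and both passed without replicate 2 of those Schwann cells (-1.09 and -0.93). Day 5 also passed with no filter (-0.75), with a minimum of 10 counts (-0.75) and with the replicate block (-0.78). Tfrc was at similar levels in both tissues until day 5, at 0.12 ± 0.15 before crush, 0.01 ± 0.14 on day 3 and 0.05 ± 0.15 on day 5, with 95% intervals within 0.44 of 0 on either side. On day 7 it was higher in Schwann cells (0.72 ± 0.15, adjusted p = 0.00116). Without uncrushed Schwann cell replicate 1 the uncrushed difference passed at 0.36, and with total counts in place of TMM at 0.42. The mean deposited TPM of uncrushed Tfrc was 27.2 in Schwann cells and 14.4 in whole nerve. Slc11a2 was lower on days 3, 5 and 7, between -0.38 and -0.34, with calls lost under several alternatives.

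In the order of group means of the scaled level, Heph, Slc40a1, Slc11a2, Tf and Fth1 had the 4 whole nerve groups above the 4 Schwann cell groups. How many of all genes share this order was not counted. Neighbouring groups within a tissue mostly overlapped for Slc40a1 and Slc11a2. Cp, chosen for its pattern over these groups, was the member in which no neighbouring groups overlapped over all 8 places. That is a description only, and the share of all genes with such gaps was not counted. For Hmox1, whole nerve on day 3 and uncrushed Schwann cells shared the top, at means of 16.3 and 15.5, and uncrushed whole nerve was lowest at 4.43.

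By the Pearson correlation of log2(CPM + 1), with CPM the TMM-scaled counts relative to depth, the genes most like Cp over the 16 libraries were Arap2 (r = 0.979), Vsir (0.972), Clec9a (0.972), Sema3f (0.971) and Osmr (0.971), out of 16828 compared. The libraries share the split by tissue and by crush, so these values are a description. On the FPKM scale Arap2 and Sema3f had ranks 1 and 2, and Clec9a, Osmr and Vsir came at 9, 19 and 36. Osmr, a receptor subunit for oncostatin M, was at 7.56 and 6.18 FPKM in uncrushed Schwann cells, between 0.58 and 1.31 in the crushed ones, 2.29 and 2.67 in uncrushed whole nerve and between 10.8 and 18.4 in crushed whole nerve. Clec9a, a C-type lectin, had 3.64 and 3.70 FPKM in uncrushed Schwann cells, between 0.45 and 0.80 in crushed ones, and 1.29 and 1.37 before crush against 3.41 to 5.32 after it in whole nerve.

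A wider list of 58 iron genes was read for reduction and uptake, storage, regulation, heme, mitochondrial iron and copper supply. In Schwann cells 44 were tested and 10 rose and 10 fell on day 3, 12 and 6 on day 5, and 9 and 7 on day 7. Of all genes tested, 52.5%, 54.6% and 46.9% were called on those days, a larger share than in the list. The counts of the list include Hp in both tissues and, in whole nerve, Steap1, Lrp2 and Bmp6, whose low counts are given below without a call. The median log2 fold change of the list was 0.07 on day 3, beside 0.00 for all genes. In whole nerve 51 were tested and 10 rose and 12 fell on day 3, 5 and 16 on day 5, and 6 and 17 on day 7, beside 45.6%, 38.4% and 31.3% of all genes called. Its median there was 0.05, -0.06 and -0.15, beside 0.00, -0.01 and 0.02 for all genes.

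Of the 9 genes of reduction and uptake other than Steap1 and Lrp2, 3 rose and 5 fell in whole nerve on each day. Of all genes tested 23.1%, 18.9% and 15.4% rose and 22.5%, 19.5% and 15.9% fell on days 3, 5 and 7. The group itself was not tested. Steap2 is a metalloreductase of the endosome. The scaled level of Steap2 was 1.81 and 2.18 before crush and 12.4 and 12.7 on day 3 (2.59 ± 0.13, adjusted p = 1.67e-07), a rise. Its relative Steap1 had 9 and 2 counts before crush and 147 in each day 3 library, and since it was high enough for the test only through crushed nerve its call is not used. In Schwann cells Steap2 had 1 to 5 counts and Steap1 0 to 4 in each library. Steap4, a further member, rose from 68.6 and 76.1 to 138 and 139 (0.87 ± 0.09, adjusted p = 1.75e-05).

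Slc39a14, an importer of iron not bound to transferrin, moved in opposite directions. In whole nerve it was at 3.81 and 3.21 before crush and 8.47 and 7.91 on day 3 (1.15 ± 0.14, adjusted p = 8.11e-05). In Schwann cells it was at 5.05 and 4.89 before crush and 2.45 and 2.76 on day 3 (-0.89 ± 0.15, adjusted p = 0.000679). The difference of these effects was -2.15 ± 0.20, given without a test because the gene was named for its day 3 change.

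Receptors of this group went both ways in whole nerve. Scara5, a ferritin receptor named after its values were seen, was at 31.5 and 26.2 before crush and rose on day 5 to 45.7 and 44.9 (0.55 ± 0.12, adjusted p = 0.00579) and on day 7 (0.55 ± 0.12, adjusted p = 0.00694), with 0.29 ± 0.12 on day 3 (adjusted p = 0.0758). The endocytic receptor Lrp2 had 109 and 77 counts before crush and 11 and 7 on day 3, and its call is not used because the day 3 counts lay under the minimum of the filter. Slc22a17, a receptor for lipocalin 2, fell from 13.3 and 14.4 to 4.29 and 3.92 (-1.82 ± 0.21, adjusted p = 5.20e-05). Its ligand Lcn2, which binds iron-carrying siderophores, fell from 22.9 and 28.6 to 9.85 and 9.58 (-1.46 ± 0.22, adjusted p = 0.000407). Lcn2 had 0 to 2 counts in every Schwann cell library. Lrp2 also fell in Schwann cells, from 0.230 and 0.308 to 0.136 and 0.0646 (-1.43 ± 0.39, adjusted p = 0.0111). Slc22a17 in Schwann cells gave -0.10 ± 0.14 on day 3 and 0.17 ± 0.14 on day 5, and rose on day 7, from 9.82 and 9.88 to 16.2 and 14.0 (0.62 ± 0.14, adjusted p = 0.00569).

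Heme transporters went both ways in Schwann cells. Of 8 genes of heme uptake, export and breakdown tested there apart from Hp, 3 rose and 3 fell on day 3, beside 26.9% and 25.7% of all genes. Flvcr1, a heme exporter, went from 3.97 and 4.10 to 0.663 and 1.27 (-2.0 ± 0.36, adjusted p = 0.00124), and its relative Flvcr2 from 11.9 and 13.0 to 4.45 and 4.37 (-1.47 ± 0.17, adjusted p = 7.24e-05). Flvcr2 fell in whole nerve as well, from 5.25 and 5.49 to 2.08 and 2.54 (-1.28 ± 0.17, adjusted p = 0.000137). Slc46a1, a folate and heme carrier, rose in Schwann cells from 0.289 and 0.279 to 0.593 and 0.976 (1.33 ± 0.41, adjusted p = 0.0212). Slc48a1, a further heme transporter and also named after its values were seen, rose from 11.6 and 12.1 to 19.8 and 15.6 (0.60 ± 0.14, adjusted p = 0.00553). Blvrb, a biliverdin reductase, rose from 6.23 and 5.47 to 9.32 and 11.3 (0.88 ± 0.24, adjusted p = 0.0130).

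Haptoglobin (Hp), which binds free hemoglobin, had 19 and 20 counts in uncrushed Schwann cells and 2 and 0 on day 3. In whole nerve its counts were 17 and 3 before crush and 64 and 42 on day 3. The day 3 Schwann cell counts and 1 uncrushed whole nerve count lay under the minimum of the filter, so its calls are not used, and the uncrushed whole nerve replicates differed widely.

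Among genes of heme synthesis and of mitochondrial iron, Alad, the second enzyme of the heme pathway, rose in Schwann cells from 1.51 and 1.14 to 1.92 and 3.22 (0.95 ± 0.35, adjusted p = 0.0451). The glutaredoxin Glrx5, which passes on iron-sulfur clusters, rose from 3.01 and 3.58 to 5.84 and 6.08 (0.75 ± 0.23, adjusted p = 0.0207). The ferredoxin Fdx1 fell from 75.3 and 70.6 to 27.7 and 31.9 (-1.27 ± 0.14, adjusted p = 4.05e-05). Iscu, the scaffold for these clusters, fell in whole nerve from 151 and 128 to 82.0 and 67.5 (-0.97 ± 0.14, adjusted p = 0.000289) and gave 0.13 ± 0.11 in Schwann cells. Atox1, a copper chaperone for the pumps that load ceruloplasmin, rose in both tissues, from 11.3 and 16.4 to 28.4 and 30.5 in Schwann cells (1.10 ± 0.21, adjusted p = 0.00194) and from 44.2 and 45.7 to 77.1 and 69.2 in whole nerve (0.65 ± 0.16, adjusted p = 0.00668).

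**Figure D5:**
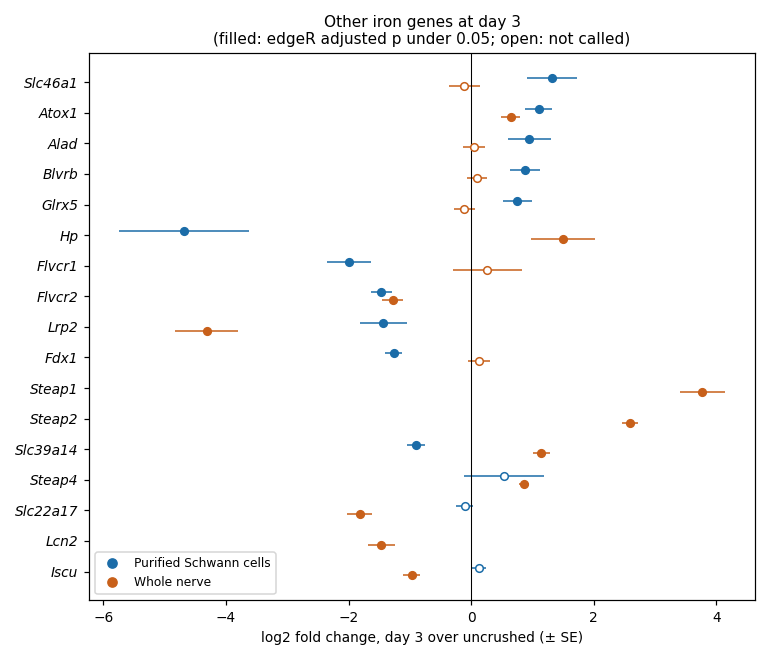
Log2 fold change on day 3 with its SE of the genes of the wider iron list that rose or fell most in either tissue, 5 in each direction, in purified Schwann cells and whole nerve. Filled points have an edgeR adjusted p under 0.05, a gene too low for the test in a tissue has no point there, the calls of Hp and those of Lrp2 and Steap1 in whole nerve rest on a group near the floor, and Slc39a14 stands on opposite sides of 0.

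Of the iron regulation group, 4 genes were high enough for the test in Schwann cells and 6 in whole nerve. The iron regulatory proteins, which bind the messages of ferritin and of the transferrin receptor, are encoded by Aco1 and Ireb2. Aco1 was at 10.3 and 8.43 in uncrushed Schwann cells and rose on day 5 (0.58 ± 0.12, adjusted p = 0.00251) and day 7 (0.46 ± 0.12, adjusted p = 0.0101), and it rose in whole nerve on day 3 (0.28 ± 0.09, adjusted p = 0.0266). Ireb2 was at 17.5 and 18.3 in uncrushed Schwann cells and did not pass there, with 0.04 ± 0.10 on day 3. In whole nerve it fell on day 3 (-0.28 ± 0.08, adjusted p = 0.0179) and day 7 (-0.25 ± 0.08, adjusted p = 0.0415).

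Fbxl5, the iron-sensing ligase subunit that removes the protein of Ireb2, rose in Schwann cells on day 3 (0.33 ± 0.10, adjusted p = 0.0219) and fell in whole nerve on day 7 (-0.39 ± 0.09, adjusted p = 0.00918). Its crush effect differed between the tissues on day 3 by 0.42 ± 0.13 (adjusted p = 0.0274). Neo1, a receptor linked to hemojuvelin, fell in whole nerve by -0.65 ± 0.08, -0.67 ± 0.08 and -0.78 ± 0.09 on days 3, 5 and 7, with adjusted p of 0.000153 or less, and in Schwann cells on day 7 (-0.31 ± 0.10, adjusted p = 0.0308).

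The genes of systemic iron sensing were near the floor in Schwann cells, and Hamp, Tfr2 and Tmprss6 also in whole nerve. Hamp, the hepcidin gene, had 0 to 3 counts per library, and Tfr2 and Tmprss6 had 0 to 8. The hemojuvelin gene, listed as Hfe2, had 0 or 1 count in Schwann cells and 0 to 34 in whole nerve. Hfe, an inhibitor of transferrin receptor binding, was at 0 to 9 counts in Schwann cells and at 24 to 79 in whole nerve, where no day passed. Bmp6, an inducer of hepcidin, had 0 to 3 counts in Schwann cells and 5 to 25 in whole nerve.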

How the data were processed

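RNA of purified Schwann cells and of whole nerve was sequenced in 16 libraries. The authors amplified the cDNA and, per the labels, aligned the reads with STAR to Rnor_6.0 and used RSEM. The deposited expected counts are not normalized, and the deposited FPKM and TPM were computed by the authors with RSEM per gene length and library. The deposited count matrix equals the per-library counts. A module table with 8 columns of per-sample FPKM was not used. Groups and replicates were taken from the labels.

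edgeR 4.0.16 (R 4.3.3) was run on the rounded expected counts, scaled by TMM and filtered by filterByExpr, with its quasi-likelihood F-test and a Benjamini-Hochberg threshold of 0.05 over all genes. Each tissue was fitted alone over its 4 groups, and comparisons between the tissues and the difference of the crush effect used all 16 libraries. Filters, scalings, DESeq2 1.42.0, a replicate block and leaving out each library were tried as alternatives. Total counts in place of TMM were chosen as an alternative after seeing the data. Levels were computed from the counts per effective length with the TMM factors of all libraries. Matching counts gave no pair of libraries that differed by less than sampling noise. The intervals of count ratios cover counting error only, at 95%.

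On simulated data for Schwann cells at day 3 (14582 genes), 141 of 200 changed genes were recovered, 83 of 100 with 4-fold and 58 of 100 with 2-fold changes, with 10 false among 151 calls. In the real comparison 52.5% of genes were called, a far larger share than was changed here, so these rates need not hold there.

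The members and lists were chosen with earlier results of these data known, and Cp is given without a test throughout. Named were the 9 members, the 5 genes of the wider iron list with the largest rise and the 5 with the largest fall at day 3 among the calls of each tissue, all genes of the iron regulation group, and the 5 genes most correlated with Cp. Scara5 and Slc48a1 were added after their values were seen. Promoter sequences are from RefSeq (GRCr8), and those of Fth1, Ftl1 and Hmox1 were not used here.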

Additional observations from a re-analysis of the deposited data

Results flagged for a closer look

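The effect of crush on 3 of the 7 genes testable in both tissues differed between purified Schwann cells and whole nerve on day 3 or later, by a test of the difference itself. Over all genes 26.0%, 27.5% and 26.0% were called in that test on days 3, 5 and 7. Given as the Schwann cell minus the whole nerve log2 fold change, Hmox1 differed by -3.13 at day 3, -2.54 at day 5 and -2.12 at day 7. Fth1 differed by 0.75 at day 3 and 0.80 at day 5, but day 3 was lost with total counts in place of TMM. Ftl1 differed by 0.64 at day 3 and 0.80 at day 5, but day 3 was lost in 6 of the 8 fits that left out 1 library (0.47 to 0.69), day 5 in 2 such fits (0.58 and 0.63), and both with total counts in place of TMM (0.28 and 0.55). For Cp, which was chosen for this pattern, the difference was not tested and is -3.75, -4.41 and -5.11.

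In the iron regulation group, Fbxl5 differed by 0.42 at day 3 by the same test. Slc39a14 was named for its day 3 change and moved in opposite directions in the tissues on that day, with a difference of -2.15, which was not tested.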

How the results depend on the processing

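The count of genes called stayed within 1.5 times the main count in 172 of 178 alternatives. With total counts in place of TMM, whole nerve at day 7 against uncrushed had 7959 calls in place of 4952. Leaving out 1 library gave between 1533 and 2182 calls for Schwann cells at day 7 against day 3 and between 1635 and 2516 for whole nerve. With total counts, the median of all genes moved by 0.41, 0.40 and 0.41 in whole nerve at days 3, 5 and 7, where the share of calls that was higher went from 50.7%, 49.2% and 49.3% to 79.2%, 81.2% and 85.8%. It went from 48.8% to 62.5% for Schwann cells at day 7 against day 3, from 45.2% to 58.9% for the uncrushed tissues, and from 47.4%, 45.8% and 44.6% to 19.5%, 24.9% and 23.2% for the difference of the crush effect, and from 49.3% to 60.8% for whole nerve at day 7 with all 16 libraries in 1 fit. The cause was not tested.

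Of the members' log2 fold changes under an alternative, 1373 were the same in direction and call, 61 lost a call and 59 gained one. Another 14 values of Cp moved by at least the SE of the main fit, and 40 values turned in sign. None of those that turned had passed the test. For Slc40a1, Schwann cell day 7 over day 3 turned to -0.016 with at least 10 counts in every library and -0.042 with all 16 libraries, and whole nerve day 3 to 0.0029 (upper quartile), 0.027 (no filter), 0.014 (replicate block), 0.40 (total counts) and 0.061 (all 16 libraries). With total counts, Slc11a2 turned to 0.25 and 0.20 in whole nerve at days 5 and 7 and to 0.19 between the uncrushed tissues, Tfrc to -0.038 between the tissues at day 3, and the difference of the crush effect to -0.25 for Slc40a1 at day 3 and -0.12 for Tf at day 7. By deposited TPM, the log2 ratio of Tfrc levels in whole nerve at day 5 turned to 0.058.

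Leaving out 1 library turned the sign of some values that had not passed. Against uncrushed, the ranges were -0.15 to 0.44, and -0.51 to 0.74, for Slc40a1 in Schwann cells at days 3 and 7, -0.24 to 0.29, and -0.11 to 0.42, in whole nerve at days 3 and 5, and -0.24 to 0.037 for Tf in Schwann cells at day 3. At day 7 over day 3 they were -0.69 to 0.56 for Slc40a1 and -0.58 to 0.49 for Hmox1 in Schwann cells, and -0.175 to 0.27 for Fth1 in whole nerve. Between the tissues they were -0.17 to 0.36, -0.0175 to 0.044, and -0.018 to 0.11, for Tfrc uncrushed and at days 3 and 5, and -0.93 to 0.12 for Hmox1 at day 7. For the difference of the crush effect they were -0.24 to 0.40, -0.068 to 0.90, and -0.15 to 1.09, for Slc40a1 at days 3, 5 and 7, -0.34 to 0.19, and -0.31 to 0.22, for Tfrc at days 3 and 5, -0.062 to 1.06 for Heph at day 5 and -0.22 to 0.41 for Tf at day 7. The cause was not tested.

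The numbers of the replicates did not pair the libraries: the deviations of same-numbered libraries correlated between -0.0734 and 0.1215 over 28 pairs, with 1 over 0.1. The replicate block gave 2851 and 5117 calls for Schwann cells at day 7 over day 3 and whole nerve at day 7, in place of 3140 and 4952. With it, Heph passed in whole nerve at day 3 (0.48), Slc40a1 at day 7 (-0.46) and day 7 over day 3 (-0.47), Hmox1 between the tissues at day 5 (-0.78) and the difference of Ftl1 at day 7 (0.62). Heph had 1 to 11 and Slc40a1 11 to 39 counts in each Schwann cell library.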
